A study of Mus musculus with 4 samples.

Results

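The Hox genes encode homeodomain transcription factors and lie in 4 clusters on the mouse genome (build mm10): HoxA on chromosome 6, HoxB on chromosome 11, HoxC on chromosome 15 and HoxD on chromosome 2. The set described here holds 38 Hox genes, taken as a gene family, with 10 genes in HoxA, 10 in HoxB, 9 in HoxC and 9 in HoxD. Accessible regions were assigned to a cluster when they lay inside a Hox gene, within 1 kb of one, or between Hox genes of the same cluster. Of 91858 regions formed by merging the peaks of all libraries, 23 met this rule: 7 in HoxA, 9 in HoxB, 3 in HoxC and 4 in HoxD. Of these, 10 were called in all 4 libraries (shared regions), compared with 57.8% of all regions.

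Accessibility was measured by ATAC-seq, which cuts and tags open chromatin with a transposase, in macrophages grown from mouse bone marrow for 7 to 10 days with medium conditioned by L929 fibroblasts, a source of the macrophage growth factor CSF1. Knockout (KO) cells came from Ezh2 fl/fl;LysM-Cre+/- mice, in which Cre made from the Lyz2 locus deletes Ezh2 in myeloid cells, and the wild-type (WT) group was grown from control littermates, whose genotype is not described further. Both genotypes, with 2 libraries each, had received medium conditioned by Hepa1-6 cells, a mouse liver cancer line, for 24 hours. All groups therefore share that exposure, and no library without it was analysed here. The age and sex of the mice, the extent of Ezh2 loss in the sequenced cells, and whether the replicates are separate mice are not given in the labels, so the spread between libraries may be technical.

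Within each Hox cluster the order of the genes follows the order in which they act along the body axis. Genes of the same number in different clusters, called a paralog group, descend from a common ancestor. Low-numbered genes pattern the head and neck and high-numbered genes the tail and limbs. In most differentiated tissues the clusters carry H3K27me3, the histone mark placed by Polycomb repressive complex 2 (PRC2), of which Ezh2 is a catalytic subunit. In blood formation, Hoxa9 and Hoxa10 are active in stem and progenitor cells and decline as myeloid cells mature, and forced Hoxb8 expression keeps myeloid progenitors dividing.

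The 5 promoter stretches below show where the accessible regions fell and where none was called. Each gives the 250 bases before an annotated transcription start, from RefSeq on GRCm38.p6 (the assembly behind mm10), written 5′ to 3′ on the strand of the gene, with CG dinucleotides in capitals. The Hoxa3 stretch, chr6:52213068-52213317 on the minus strand, overlapped a region called in all 4 libraries. The Hoxa10 stretches, before an upstream start (chr6:52240855-52241104) and a downstream start (chr6:52234940-52235189), both on the minus strand, lay beside a region called in all 4 libraries and a region called in WT libraries alone. The Hoxa13 stretch (chr6:52260881-52261130, minus strand) and the Hoxd13 stretch (chr2:74667975-74668224, plus strand) had no peak. They had the most CG dinucleotides among the Hox promoters with a sequence available.
Hoxa3: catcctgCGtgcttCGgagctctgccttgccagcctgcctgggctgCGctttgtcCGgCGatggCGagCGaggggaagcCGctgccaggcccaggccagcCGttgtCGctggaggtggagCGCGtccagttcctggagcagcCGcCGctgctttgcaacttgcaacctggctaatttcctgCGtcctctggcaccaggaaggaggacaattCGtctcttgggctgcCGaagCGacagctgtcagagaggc
Hoxa10 upstream start: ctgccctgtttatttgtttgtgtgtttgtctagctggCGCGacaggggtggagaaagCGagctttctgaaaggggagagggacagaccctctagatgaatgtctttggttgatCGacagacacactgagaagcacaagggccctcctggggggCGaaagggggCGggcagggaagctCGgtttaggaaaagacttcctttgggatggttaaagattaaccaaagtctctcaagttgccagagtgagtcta
Hoxa10 downstream start: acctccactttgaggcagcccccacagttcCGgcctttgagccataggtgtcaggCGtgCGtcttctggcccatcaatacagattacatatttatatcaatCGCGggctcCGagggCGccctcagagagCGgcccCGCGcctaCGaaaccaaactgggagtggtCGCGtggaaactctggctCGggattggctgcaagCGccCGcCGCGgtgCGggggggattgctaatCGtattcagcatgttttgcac
Hoxa13: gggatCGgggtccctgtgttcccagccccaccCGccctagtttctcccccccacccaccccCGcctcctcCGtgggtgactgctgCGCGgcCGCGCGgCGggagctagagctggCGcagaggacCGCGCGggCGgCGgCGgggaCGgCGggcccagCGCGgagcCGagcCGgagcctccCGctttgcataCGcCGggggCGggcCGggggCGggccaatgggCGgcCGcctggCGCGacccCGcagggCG
Hoxd13: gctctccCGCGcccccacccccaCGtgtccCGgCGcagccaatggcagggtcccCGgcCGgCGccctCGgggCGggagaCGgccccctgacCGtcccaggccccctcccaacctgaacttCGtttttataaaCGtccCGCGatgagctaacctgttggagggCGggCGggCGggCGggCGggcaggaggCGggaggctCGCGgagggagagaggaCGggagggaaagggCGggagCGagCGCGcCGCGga
These stretches hold 18, 7, 20, 35 and 31 CG dinucleotides in the order shown. Of the 250 bases of the Hoxa3 stretch, peaks covered 250 in WT replicate 1, 10 in WT replicate 2, 5 in KO replicate 1 and 93 in KO replicate 2, while the other stretches had 0 covered bases in every library.

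The peak lists held between 67055 and 72887 peaks per library and covered 26.7 to 29.9 Mb. The files give no read counts, so sequencing depth is unknown, and a region without a peak is uncalled rather than shown to be closed. A region open in few cells and a region weakly open in all cells cannot be told apart in these bulk libraries. At all 8 macrophage markers examined (among them Spi1, Csf1r and Adgre1), a region within 1 kb of a gene end was called in each library. Of 6 progenitor markers, 4, 4, 4 and 5 had one in WT replicate 1, WT replicate 2, KO replicate 1 and KO replicate 2. For 6 fibroblast markers the count was 1 in each library (Col1a1), and for 6 hepatocyte and hepatoma markers it was 2, 1, 2 and 1 in the same order. Apoa1 was called at an end in every library and Alb in replicate 1 of each genotype. No call lay at the ends of Afp, Ttr, Hnf4a or Foxa2. Away from their ends, Afp, Hnf4a, Prrx1, Pdgfra and Pdgfrb held a region called in all 4 libraries. The part these cell types had in the Hox results was not tested. Every library had a peak near an end of Ezh2, which does not check the deletion, since the files hold peaks and no reads over the floxed exons.

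Most Hox genes had no called region. Of the 38 genes, 26 had no region inside or within 1 kb, compared with 25.9% of all protein-coding genes, and 5 had a region called in all 4 libraries, compared with 66.3%. Hox genes are short, with a median span of 3722 bp against 17149 bp for all protein-coding genes. Among genes of at most 10 kb, 3 of 32 Hox genes and 43.3% of all protein-coding genes had a region called in all 4 libraries inside or within 1 kb. A gene-end region is one within 1 kb of either annotated end of a gene. In all 4 libraries such a region was called at 4 of the 38 genes (Hoxa3, Hoxa4, Hoxa10 and Hoxb8), compared with 54.7% of all protein-coding genes, 4 had one in a single library, and 30 had none, compared with 38.9%. Among genes of at most 10 kb, all 4 libraries had a gene-end call at 3 of 32 Hox genes and at 40.5% of protein-coding genes. The family was singled out with earlier results of these data known, so these shares are given as a description without a test.

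**Figure D1:**
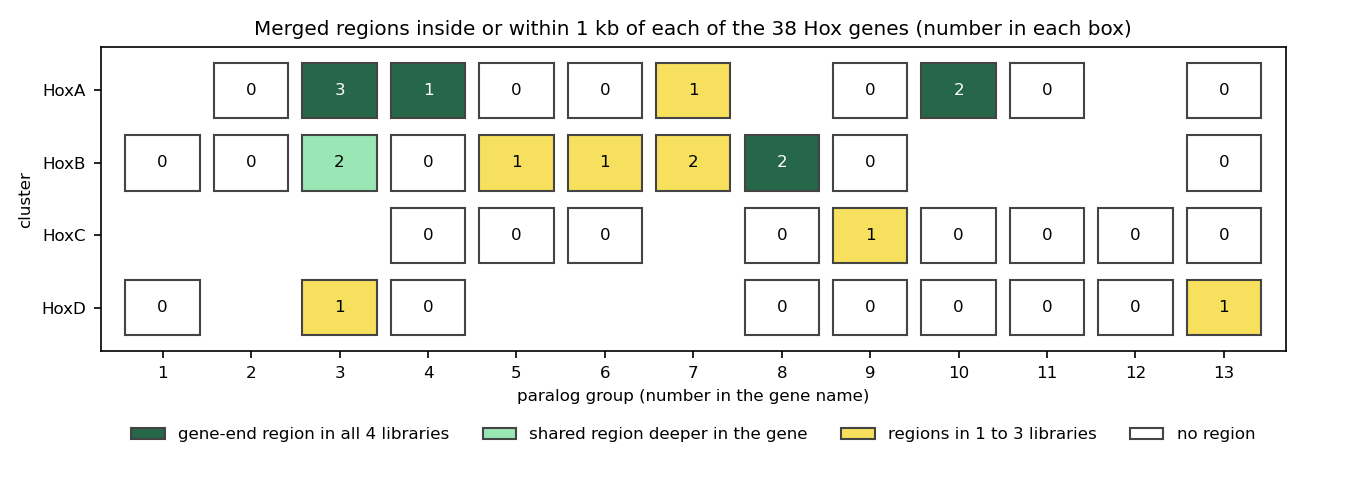
Each box is 1 of the 38 Hox genes, placed by cluster (rows) and paralog group (columns), and the number in it counts merged regions inside or within 1 kb of the gene. Blank positions hold no gene of the set. Dark green marks the 4 genes with a gene-end region in all 4 libraries, light green Hoxb3, and white the 26 genes without a region.

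Of the 10 shared regions, 7 lay inside or within 1 kb of a Hox gene, at paralog groups 3, 4, 8 and 10, and 3 lay between genes. In group 3, Hoxa3 and Hoxb3 had shared regions and Hoxd3 had a region in a single library. In group 4, Hoxa4 had a shared region while Hoxb4, Hoxc4 and Hoxd4 had no region. In group 8 this held for Hoxb8 and not for Hoxc8 or Hoxd8, which had no region, and in group 10 for Hoxa10 and not for Hoxc10 or Hoxd10, which also had none. Across groups 1 to 4, 3 of 11 genes had a region called in all 4 libraries, across groups 5 to 8, 1 of 11, and across groups 9 to 13, 1 of 16. Over all protein-coding genes the share was 66.3%. The count for groups 1 to 4 includes Hoxa3 and Hoxb3, which have long annotated spans of 44009 and 40830 bp. The region at Hoxa4 also counts for Hoxa3, and Hoxb3 had no gene-end region. No gene of groups 1, 2, 11 or 12 had any region. Both genes of group 7, Hoxa7 and Hoxb7, had regions in single WT libraries.

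The clusters differed in how many shared regions they held. HoxA, which spans 98.5 kb between the outer ends of its genes, had 5 regions called in all 4 libraries, HoxB had 4 over 173.9 kb, HoxD had 1 over 96.9 kb, and HoxC had 0 over 115.7 kb. This corresponds to 5.08, 2.30, 1.03 and 0 shared regions per 100 kb for HoxA, HoxB, HoxD and HoxC. The density over the whole genome was not computed, so these values do not show whether a cluster was dense or sparse. The median distance between neighbouring shared regions over the genome was 13.1 kb. This median and the percentages below count each stretch once, whatever its length, so they do not give shares of the genome. The whole of HoxC lay in a stretch of 363.8 kb without a shared region, longer than 98.0% of such stretches. The HoxD genes from Hoxd12 to Hoxd1 lay in a stretch of 152.3 kb, longer than 95.8%, and the HoxB genes from Hoxb4 to Hoxb1 in one of 95.7 kb, longer than 93.0%. In HoxA the longest stretch was 30.6 kb, longer than 74.3%. With peaks required to stand above the weakest 25% of their list, 8 of the 15 Hox regions left (53.3%) were shared, against 64.3% of all regions. Above the weakest 50%, 5 of the 7 left (71.4%) were shared, against 58.4%, so that the Hox share, on few regions, then lay above that of the genome. When a call needed peaks over 50% of a region, 4 of 23 (17.4%) were shared, against 41.8%. With the distance to a gene end widened to 2 kb, the genes called in all 4 libraries numbered 9, against 59.5%.

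**Figure D2:**
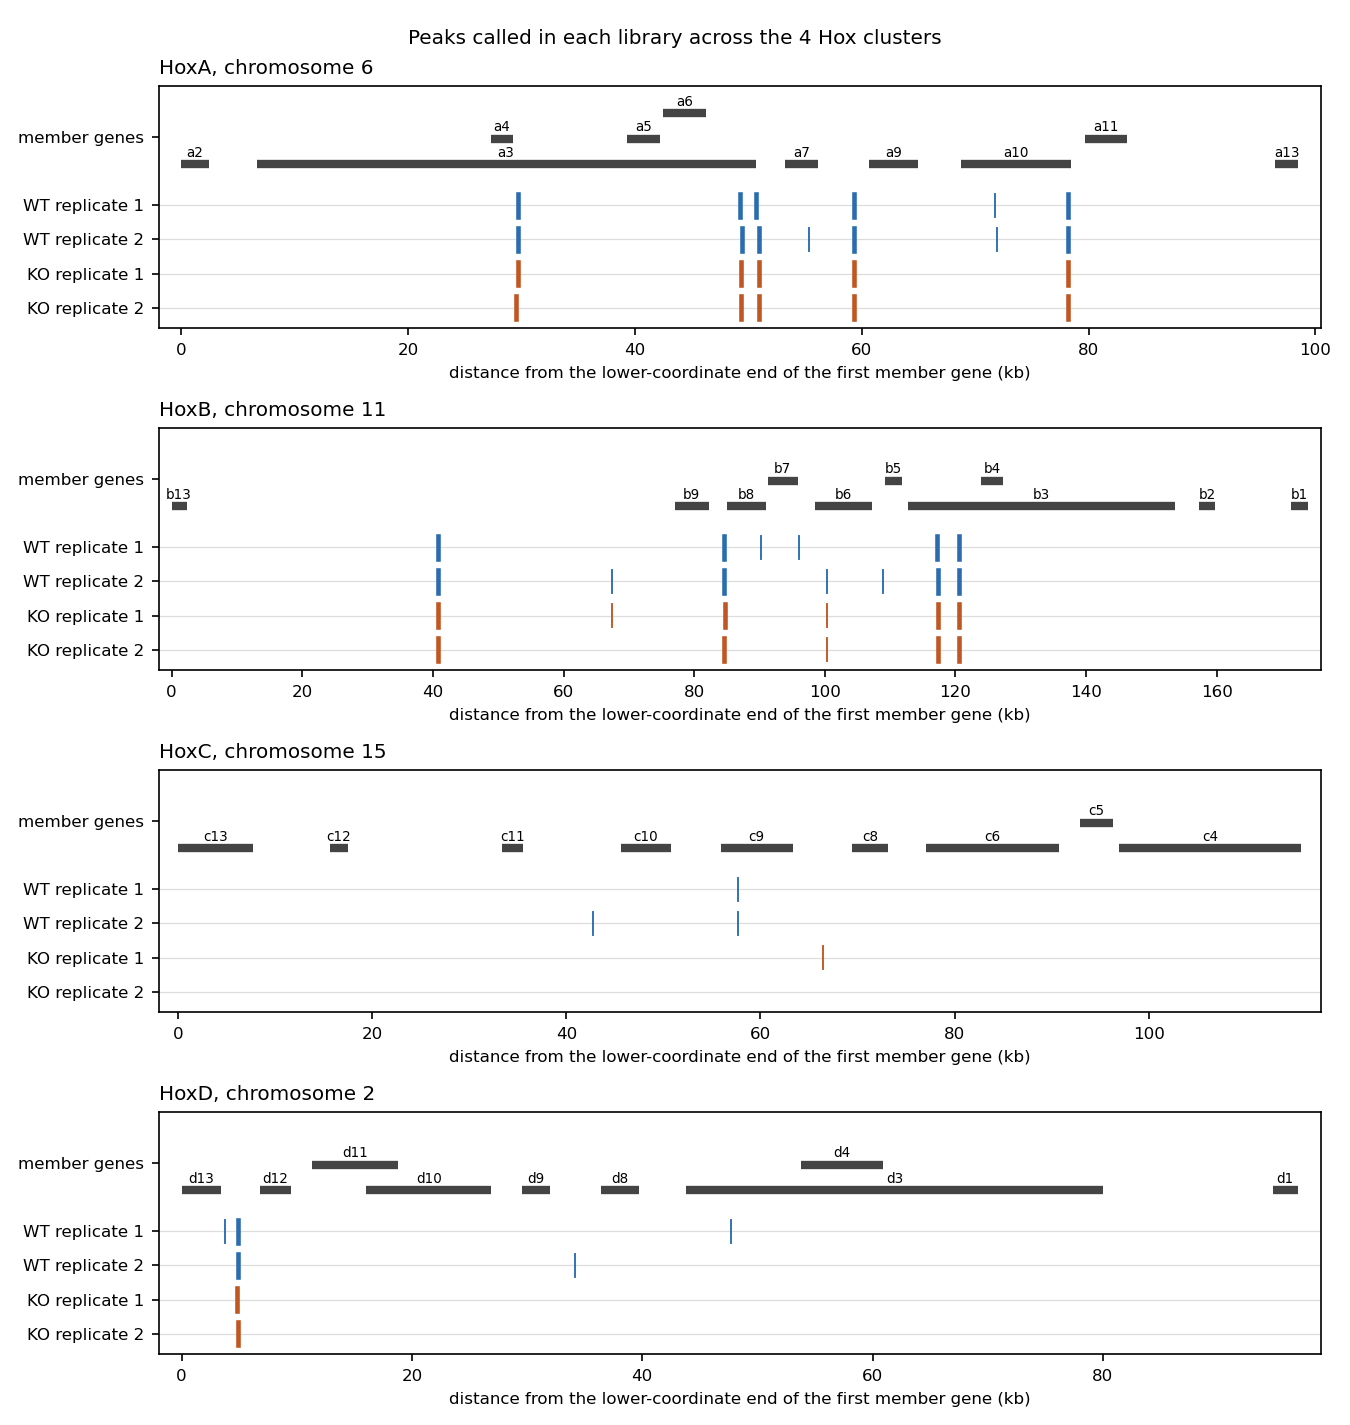
Each panel is 1 cluster, with distance in kb from the lower-coordinate end of its first gene on the x axis, gene spans as grey bars and a tick at the centre of each peak in each library (WT blue, KO orange). Thick ticks are regions called in all 4 libraries, of which HoxA has 5, HoxB 4, HoxC 0 and HoxD 1. Tick width does not show peak width.

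HoxA held the strongest regions of the set. At Hoxa4, which patterns the neck vertebrae, a merged region of 918 bp (chromosome 6, 52191457 to 52192374) spanned the higher-coordinate end of the gene. Only the peak of KO replicate 2 reached that end. The bases common to all peaks, 52191841 to 52192285, lay just outside Hoxa4. The peaks of this region were 445 and 532 bp wide in WT replicates 1 and 2 and 538 and 918 bp in KO replicates 1 and 2. The deposited fold, which is the authors' enrichment of a peak over local background, was 7.39 and 6.82 in WT and 7.17 and 6.09 in KO. Ranked within their own lists, the WT peaks stood at percentiles 93.4 and 90.6 and the KO peaks at 89.4 and 80.5. Percentiles come from lists of unlike length and show no change between libraries. The peak was thus strong in every library. The region also lay inside the annotated span of Hoxa3, whose longest model reaches over Hoxa4, Hoxa5 and Hoxa6.

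At Hoxa10, a gene of limb and uterine patterning and of blood progenitors, 2 regions were called. The shared one was narrow, 177 bp (52240493 to 52240669), and lay 185 bp downstream of the upstream Hoxa10 start whose sequence is given above. Its peaks of 164, 170, 130 and 152 bp in WT replicates 1 and 2 and KO replicates 1 and 2 had fold values of 7.69, 6.72, 6.11 and 6.05. The 4 peaks had 128 bp in common, so the libraries placed the region at nearly the same bases. The other region, of 415 bp (52234102 to 52234516), lay inside the gene, 423 bp downstream of the downstream start, and was called in both WT libraries and in neither KO library. Its WT peaks were 194 and 413 bp wide with fold values of 3.71 and 3.19, at percentiles 27.7 and 17.9 of their lists.

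Hoxa3, which patterns the neck and thymus, had 2 further shared regions near its higher-coordinate end, where its annotated start lies. The merged region at the start, 694 bp (52212805 to 52213498), had peaks of 596, 110, 138 and 274 bp in WT replicates 1 and 2 and KO replicates 1 and 2. These were weak peaks, at percentiles 13.8, 1.88, 19.4 and 21.6. Only the peak of WT replicate 1 covered the start itself, and the others lay upstream of it. The region 877 bp inside the gene, 830 bp wide (52211361 to 52212190), stood higher, at percentiles 70.9 and 75.3 for WT and at 41.0 and 60.2 for KO. Between Hoxa7 and Hoxa9 a region of 437 bp (52221532 to 52221968) was called in all 4 libraries, 1129 bp from Hoxa9. Its peaks were 391, 363, 312 and 429 bp wide, with fold values of 4.78, 6.28, 5.24 and 5.55 in the same order of libraries, so that WT and KO values overlapped. CTCF-bound boundaries have been described between genes of this cluster, and CTCF was not measured here. Hoxa7 had a region of 153 bp in WT replicate 2 alone, while Hoxa2, Hoxa5, Hoxa6, Hoxa9, Hoxa11 and Hoxa13 had none.

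In HoxB the strongest region lay beside Hoxb8. It spanned 198 bp (chromosome 11, 96278847 to 96279044), 357 bp from the lower-coordinate end of the annotated gene. Its fold was 5.98 and 6.12 in the WT libraries against 5.90 and 5.87 in the KO libraries. Its widths of 171, 198, 147 and 148 bp were again close between libraries. The promoter table places a start of Hoxb8 2861 bp from this region, so its place at the gene end depends on the longer gene model. A pair of regions inside the long annotated span of Hoxb3, on the side of Hoxb5, were shared as well. The wider, of 636 bp (96311257 to 96311892), stood at percentiles 52.9, 64.2, 53.9 and 63.4 in WT replicates 1 and 2 and KO replicates 1 and 2. The other, of 306 bp (96314781 to 96315086), lay 3181 bp from Hoxb4, a gene known for expanding blood stem cells, and stood at percentiles 31.9, 17.3, 13.5 and 23.5.

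The gap of 74.7 kb between Hoxb13 and Hoxb9 held a shared region of 200 bp (96235036 to 96235235), 36095 bp from Hoxb9. The fold was 3.94 and 4.17 in the WT libraries against 3.99 and 4.19 in the KO libraries, so the values overlapped. A region of 241 bp in the same gap, 9542 bp from Hoxb9, had a peak in WT replicate 2 and one in KO replicate 1. Inside Hoxb6 a region of 268 bp was called in WT replicate 2 and both KO libraries. Hoxb5 had a region in WT replicate 2 alone, Hoxb7 had 2 in WT replicate 1 alone, one of which lay inside the span of Hoxb8, and Hoxb1, Hoxb2, Hoxb4, Hoxb9 and Hoxb13 had none within 1 kb.

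HoxC, whose genes pattern the axial skeleton, had the fewest regions of the 4 clusters. Inside Hoxc9 a region of 154 bp (chromosome 15, 102978711 to 102978864), 1679 bp from the nearer gene end, was called in both WT libraries and in neither KO library. Its fold values were 2.97 and 3.31, at percentiles 5.71 and 21.4 of the WT lists. The remaining HoxC regions were called once each, in WT replicate 2 between Hoxc11 and Hoxc10 and in KO replicate 1 between Hoxc9 and Hoxc8. KO replicate 2 had no peak in HoxC.

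In HoxD, the cluster of limb and genital patterning, the shared region lay between Hoxd13 and Hoxd12. It spanned 447 bp (chromosome 2, 74672788 to 74673234), 1185 bp from Hoxd13 and 1779 bp from Hoxd12. The peaks were 288, 257, 435 and 135 bp wide in WT replicates 1 and 2 and KO replicates 1 and 2, with fold values of 4.36, 4.46, 4.25 and 4.90. The other HoxD regions, near Hoxd13, between Hoxd9 and Hoxd8, and inside Hoxd3, were each called in a single WT library. Hoxd1, Hoxd4, Hoxd8, Hoxd9, Hoxd10, Hoxd11 and Hoxd12 had no region inside or within 1 kb.

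**Figure D3:**
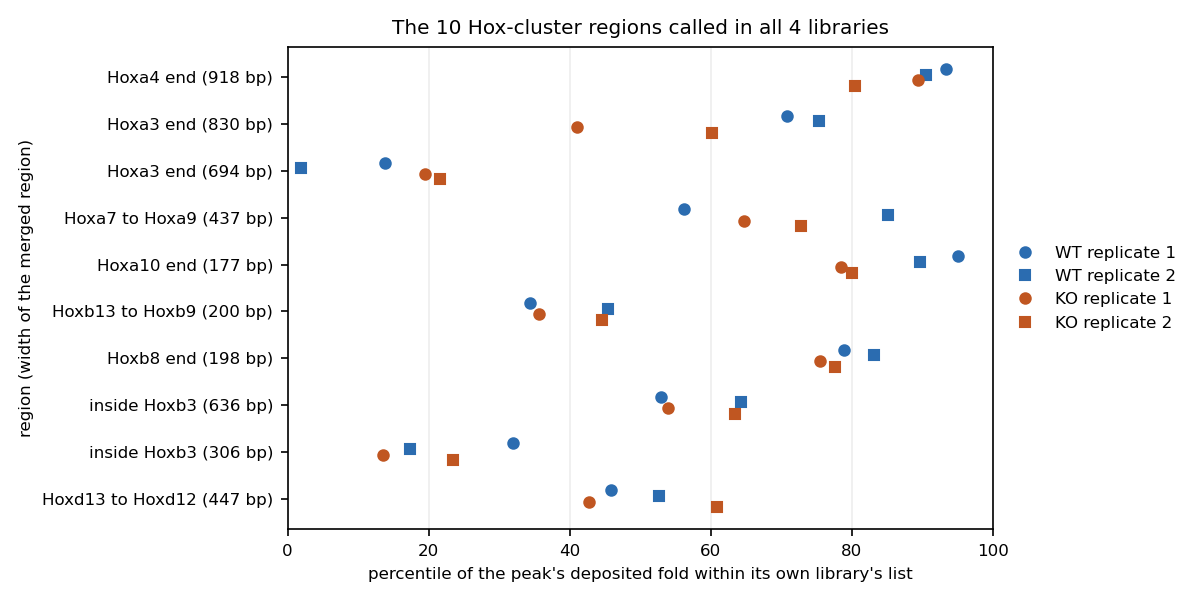
Each row is 1 of the 10 regions called in all 4 libraries, named by gene or by the genes on either side, and each point is the percentile of that library's peak by deposited fold within its own list (WT blue, KO orange, circles replicate 1, squares replicate 2). The Hoxa4 region lies at 80.5 to 93.4 in the 4 libraries and the region at the Hoxa3 start at 1.88 to 21.6.

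The comparison of genotypes asked whether chromatin of the Hox clusters was more or less often called accessible in KO than in WT libraries. No Hox region was called in both KO libraries and neither WT library, where 1.47% of all regions were. The reverse held for 2 Hox regions, inside Hoxa10 and Hoxc9, where 2.03% of all regions were called in both WT libraries alone. Regions called in a single library numbered 9, of which 4 were in WT replicate 1, 4 in WT replicate 2, 1 in KO replicate 1 and 0 in KO replicate 2. Over all regions, 12.4% were called in a single WT library and 10.6% in a single KO library. In all, 10 of the 23 Hox regions had no KO call, compared with 14.5% of all regions, and 1 had no WT call, compared with 12%. These 11 regions had weak peaks, at percentiles between 3.94 and 47.5 of their lists. All 9 peaks of the single-library regions and all 4 peaks of the regions called in both WT libraries alone stood below percentile 50. In shared Hox regions 15 of the 40 peaks did, and the median percentile there was 60.5. The part that low rank had in the difference between genotypes was not tested. For the 9 single-library Hox regions the median percentile was 24.2, against 10.3 for single-library regions over the genome. Single regions were not tested, because 2 libraries per genotype allow no two-sided exact p below 0.333.

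Counted by library, the clusters held 16 and 18 peaks in WT and 13 and 11 in KO. The WT and KO counts did not overlap, and the mean was 17.0 ± 1.41 in WT and 12.0 ± 1.41 in KO (SD, n = 2 each). The difference of -5.0 peaks gave an exact permutation p of 0.333 (two-sided), which is the smallest this design allows. Every library had 1 peak in each of the 10 shared regions, as their definition requires at least 1, so the counts could differ mainly in the other regions, where WT replicates 1 and 2 had 6 and 8 peaks and KO replicates 1 and 2 had 3 and 1. The whole lists overlapped in size, with 69210 and 72887 peaks in WT and 67055 and 71111 in KO. Per 10000 peaks of each library, the Hox clusters held 2.31 and 2.47 peaks in WT and 1.94 and 1.55 in KO (exact permutation p = 0.333). With the weakest 25% of each list removed the counts were 11 and 11 in WT and 10 and 9 in KO, and with the weakest 50% removed they overlapped, at 6 and 7 in WT and 5 and 7 in KO.

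By cluster, HoxA had 6 and 7 peaks in WT and 5 and 5 in KO, HoxB had 6 and 7 against 6 and 5, HoxC had 1 and 2 against 1 and 0, and HoxD had 3 and 2 against 1 and 1. HoxA and HoxD counts did not overlap between genotypes (exact permutation p = 0.333 each, two-sided, the smallest this design allows). HoxB and HoxC counts did (exact permutation p = 0.667 each). These counts rest on few peaks per library, and whether the clusters differed from each other was not tested. Peaks covered 4274 and 4297 bases of the clusters in WT and 3688 and 3360 in KO, a difference of -762 bases (exact permutation p = 0.333, two-sided). Within the 10 shared regions the covered bases overlapped, at 3298 and 2701 in WT and 3218 and 3243 in KO (exact permutation p = 1.0). With the weakest 25% of peaks removed, the difference over all Hox regions turned to 73 bases more in KO.

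**Figure D4:**
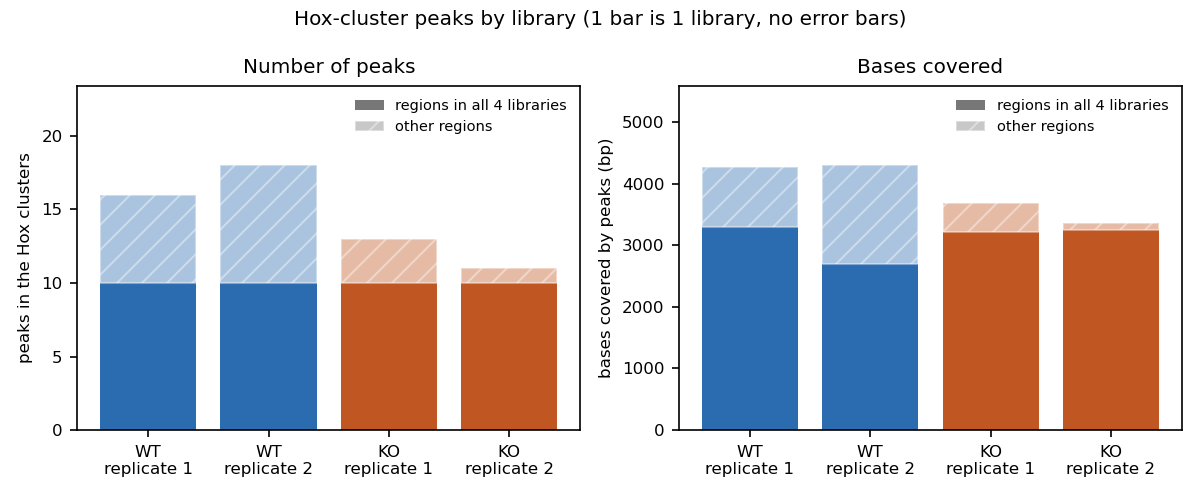
Bars give, for each library, the number of peaks in the Hox clusters (left, from 0 to 18) and the bases they cover (right), split into the 10 regions called in all 4 libraries (solid) and other regions (hatched). The solid parts hold 10 peaks in every library, and the hatched parts hold 6 and 8 in WT and 3 and 1 in KO.

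Hox promoters were rich in CG dinucleotides, and 1 of them overlapped a shared region. The promoter table, whose windows run 300 bases around each annotated start, held 24 windows for 22 of the 38 genes, all on the minus strand in HoxA and on the plus strand in the other clusters. Hoxa4, Hoxb2, Hoxb3, Hoxb5, Hoxb6, Hoxb7, Hoxb9, Hoxb13 and all HoxC genes but Hoxc4 were without one. The strong shared region at the higher-coordinate end of Hoxa4 is therefore not counted here, and the counts do not cover all Hox promoters. The Hox windows held a median of 14.5 CG dinucleotides (range 4 to 45) against 7 for all 32851 windows. A region called in all 4 libraries overlapped 1 of the 24, that of Hoxa3, compared with 38.1% of all windows. Of the 11 Hox windows with at least 20 CG dinucleotides, this was the only one, whereas 82.3% of all windows with that many overlapped a shared region. For windows with fewer, the count was 0 of 13 Hox windows against 22.2% of all windows. Within 1 kb of the start, 2 of the 24 Hox starts (Hoxa3 and the upstream Hoxa10 start) had a shared region, compared with 42.6% of all starts. The Hoxa13 and Hoxd13 windows, with 45 and 37 CG dinucleotides, had no peak in any library. No test was run on these shares, since windows of a cluster are neighbours and not independent.

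**Figure D5:**
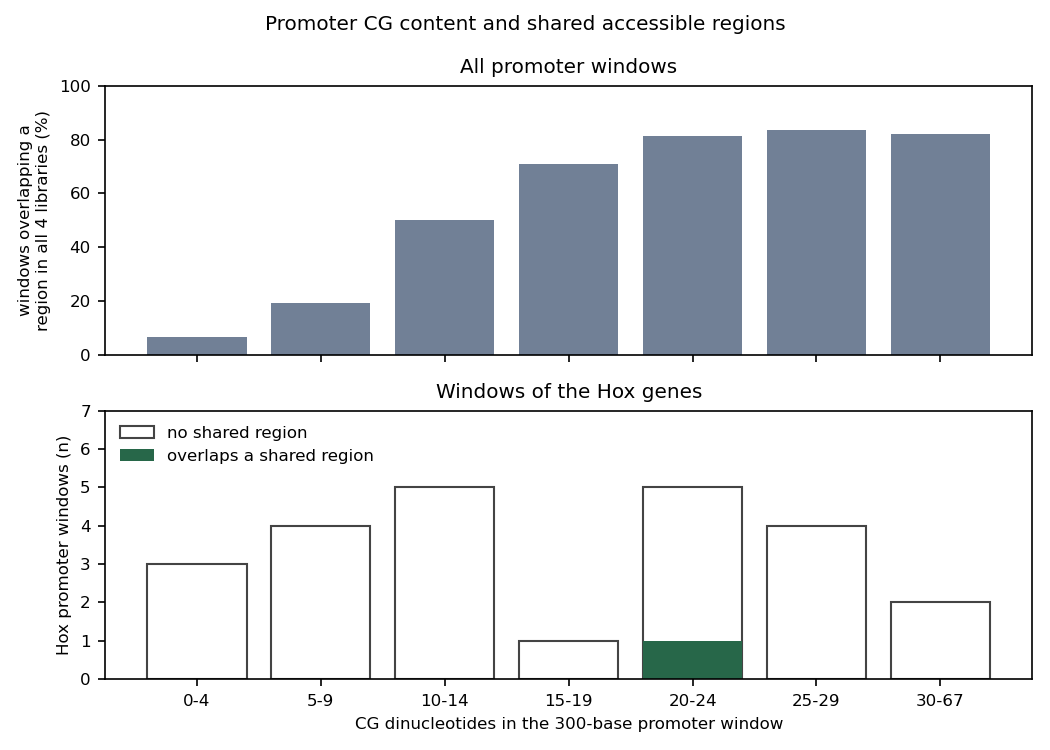
The upper bars give the percentage of all 32851 promoter windows that overlap a region called in all 4 libraries, by number of CG dinucleotides in the 300-base window, and the lower bars count the 24 Hox windows in the same classes. The upper bars run from 6.65% in the lowest class to 82.2% in the highest, and 1 Hox window (green), that of Hoxa3, overlaps a shared region.

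Cofactors, regulators and neighbours of the Hox genes were called at their ends at shares given here beside that of all protein-coding genes, with no test. Of 8 genes for TALE homeodomain cofactors, which bind DNA together with Hox proteins, 6 were called at an end in all 4 libraries, against 54.7% of all protein-coding genes. These were Meis1, Pbx2, Pbx3, Pbx4, Pknox1 and Pknox2, while Meis2 had one in WT replicate 2 alone and Meis3 had none at its ends but a shared region inside. Of 7 regulators of Hox transcription, 4 were called in all 4 libraries, near that share: Kmt2a (the H3K4 methyltransferase that maintains Hox expression), its partners Men1 and Psip1, and the H3K79 methyltransferase gene Dot1l. The caudal factors Cdx1, Cdx2 and Cdx4, which activate Hox genes in the embryo, were called in none. Of 8 genes next to the clusters, 5 were called at an end in all 4 libraries (Skap2, Skap1, Calcoco1, Smug1 and Mtx2), also near that share, Ttll6 was called in 1, and the homeobox genes Evx1 and Evx2 in none.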

How the data were processed

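The submitters' processing notes name fastp, Bowtie2 and MACS2 and the build mm10. Not given in the sources used here were their versions, the read filters, any transposase shift and the filter applied to the peaks. Each library has 1 deposited list of broad peaks. By its layout, the authors' columns hold a score, a fold ratio over local background averaged over the peak, and the −log10 p and −log10 q (p-value and q-value) of the peak caller. The fold was used to rank or filter peaks within a list and to describe them. At single regions the WT and KO fold values are given side by side without a test. They overlapped at most shared regions. WT values lay above KO values at the shared Hoxa10 region, the Hoxb8 region and the 830 bp region inside Hoxa3. They lay below KO values at the region of the Hoxa3 start. The share of such regions over the genome was not computed, so no difference between genotypes is read from them.

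Peaks of the 4 lists sharing at least 1 bp were merged into regions, and a library called a region when 1 of its peaks lay in it. Genes came from the NCBI RefSeq table of GRCm38.p6 (21896 protein-coding genes), where all 38 members matched by symbol, and promoter and miRNA sequences from RefSeq on the same assembly. The gene table has no strand, so gene ends were used, and strand came from the promoter table. Library values were compared by two-sided exact permutation tests in scipy 1.17.1, with pandas 2.3.3 and Python 3.11.15, and the merging was tested on simulated data.

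The members, the gene lists and the alternatives were chosen with earlier results of these data known. Named with values were genes with a region inside or within 1 kb called in all 4 libraries or in 1 genotype only, and the widest shared regions between genes. Every other member is listed by what was called at it. An item of the cofactor list is not reported here, and the counts leave it out. Alternatives were stricter peak thresholds, other windows, 50% coverage, leaving out each library and pairing by replicate number. Minimum widths of 150 bp and rates per 10000 peaks were chosen after the data were seen.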

Additional observations from a re-analysis of the deposited data

How the results depend on the processing

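Hox regions called in all 4 libraries numbered 10 of 23 (43.5%, against 57.8% of all regions). With the weakest 50% of peaks removed they were 5 of the 7 left (71.4%, against 58.4%), so the share turned from below to above that of the genome. When a call required peaks over 50% of the region they were 4 of 23 (17.4%, against 41.8%). The 2 regions called in WT alone fell to 0 with the weakest 25% or 50% of peaks removed. Leaving out each library in turn gave 10 to 11 shared regions and 2 to 7 regions of 1 genotype. The latter count was 6 without WT replicate 1 and 7 without WT replicate 2, since single calls then count as the whole genotype. With 50% coverage the 2 regions were 1 of each genotype. Genes with a gene-end region in all 4 libraries numbered 9 at 2 kb in place of 1 kb, against 59.5% of all protein-coding genes, because a wider window takes in more regions. The difference in covered bases turned from -762 to 73 bases with the weakest 25% of peaks removed. The difference in peaks was negative in all 11 alternatives, from -6.0 to -0.5 per library, -0.648 per 10000 peaks, and -6.0 to -4.0 with 1 library left out. Several of these could not change its sign. The WT and KO counts did not overlap, so leaving out a library or blocking by replicate had to keep it, and no window gave the same counts. With the weakest 25% and 50% of peaks removed the difference shrank to -1.5 and -0.5 peaks. With the replicate numbers as a block, an exact sign-flip test gave the same differences of -5.0 peaks and -762 bases with p = 0.5, the smallest that 2 pairs allow. It changed no call. Leaving out a library gave differences of -926 to -598 bases and 4 gene-end genes each time. Depth is unknown and limits every statement about uncalled regions.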

Other observations

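The clusters also hold genes without a protein product. Of 22 long non-coding RNA genes lying between the outer Hox genes, 3 were called at an end in all 4 libraries, 16 had none and 3 had one in a single library. Of all 12727 such genes in the table, 26.1% were called at an end in all 4 libraries and 65.5% had no gene-end region. The 3, LOC115490409, Hoxaas3 and Mira, all lay in HoxA, beside the shared regions of Hoxa3 and Hoxa4 described above, so they add no further region. Hotair in HoxC and Haglr in HoxD had no gene-end region, and Hotair lay 15916 bp from the nearest region of any kind.

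The clusters carry 6 miRNA genes, of the miR-10, miR-196 and miR-615 families, several of which are known to target Hox transcripts. The 5p mature forms of miR-10 and miR-196 are given because members of each of these families share the seed (bases 2 to 8, in capitals) across clusters.
miR-10a-5p (HoxB): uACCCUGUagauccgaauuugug
miR-10b-5p (HoxD): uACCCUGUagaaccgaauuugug
miR-196a-5p (HoxB and HoxC): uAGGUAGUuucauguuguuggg
miR-196b-5p (HoxA): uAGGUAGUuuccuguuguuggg
None of the 6 genes had a region within 1 kb in any library, which held for 79.2% of all 1228 miRNA genes. Mir10a was nearest to a shared region, at 2079 bp from the 306 bp region inside the span of Hoxb3. Mir196b lay 3937 bp from the Hoxa10 region called in WT alone and 8113 bp from a shared one. Mir10b, in HoxD, lay 52836 bp from the nearest shared region, and Mir615 and Mir196a-2, in HoxC, 110954 and 152521 bp.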
